A study of Mus musculus with 51 samples.

Results

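The genes studied here are the Toll-like receptors of mouse neutrophils together with their co-receptor and adaptor: Tlr1, Tlr2, Tlr4, Tlr6, Tlr7, Tlr9, Tlr13, Cd14 and Myd88. They were chosen by name, through the Ensembl identifiers of the count tables, and are 9 of the 50600 genes listed there. All 9 were followed in neutrophils of 4 mouse tissues and in a cultured neutrophil line, and the open chromatin sites within 50 kb of their starts were taken from the deposited site lists. The mice were CX3CR1GFP Ly6GCre-tdTomato animals, a reporter strain whose name joins Cre at the neutrophil gene Ly6g with a red fluorescent protein. A pouch of air was raised under the skin and, on day 6, 100 µg zymosan was injected into it. Zymosan is a yeast cell wall particle recognised by TLR2 and by the lectin receptor Dectin-1. At 4 h neutrophils were taken from the exudate and the membrane of the pouch, from blood and from bone marrow, so all 4 tissues came from zymosan-injected mice and there was no uninjected group. The ages of the mice and the pooling of animals are not given in the sources used here. RNA was read by Smart-seq2 from small numbers of sorted cells in 15 libraries (exudate 5, blood 5, bone marrow 3, membrane 2), and open chromatin by ATAC-seq in 2 libraries per tissue, each from 75000 Ly6G+ cells.

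ER-Hoxb8 neutrophils are progenitors held immature by an oestrogen-dependent Hoxb8 protein, which mature once oestrogen is withdrawn. After 5 days of differentiation with G-CSF they received zymosan at 50 µg/ml or DMSO vehicle for 2 h, and 2 RNA libraries were made per group. Set 1 held wild-type cells and cells labelled CEBPB-/- and JUNB-/-, and set 2 held wild-type cells and cells labelled IRF5-/- and RELB-/-, each with DMSO and with zymosan. Cells labelled RUNX1-/- and KLF6-/- were sequenced with DMSO only and were set against the DMSO wild type of set 2. How the lines were made, and how many clones each stands for, is not given in the sources used here. Nothing says that the libraries of a group came from separate cultures, so p-values measure the spread between these libraries, which may be technical.

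Toll-like receptors recognise conserved microbial molecules and signal through a shared cytoplasmic domain. TLR1, TLR2, TLR4 and TLR6 sit at the cell surface, where TLR2 pairs with TLR1 or TLR6 to bind bacterial lipopeptides and TLR4 binds lipopolysaccharide with the help of CD14. TLR7, TLR9 and TLR13 act in endosomes, where they read single-stranded RNA, unmethylated CpG DNA and bacterial ribosomal RNA respectively. MyD88 is the adaptor that carries the signal of all of these receptors to the IRAK kinases and NF-kB.

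The tissue libraries held 9.238 to 19.11 M counted read pairs and those of ER-Hoxb8 cells 19.37 to 34.26 M. Variation between libraries of a group, as edgeR's common biological coefficient, came to 1.862 for tissues and 0.0278 or less for set 1, set 2 and the later lines, so the tissues allow far less precise statements. Blood libraries 1 and 2 and exudate library 5 stood apart from the rest of their groups in Cd14. Defining neutrophil markers such as S100a8 and Ly6g were detected in every tissue group, and the 10 markers summed to between 85432 and 358213 CPM (counts scaled to library size) in the 15 libraries. Ly6g is also named in the reporter strain, and whether the reporter altered its counts was not tested. RNA of the targeted gene went against some labels. With DMSO, Cebpb stood at 524 CPM in cells labelled CEBPB-/- and 507 in wild type (0.05, adjusted p = 0.503, edgeR; -0.31 with total-count scaling), Runx1 at 154 in cells labelled RUNX1-/- against 60.4, and Klf6 at 852 in cells labelled KLF6-/- against 630. Junb (499 against 900 CPM), Irf5 (81.4 against 98.6) and Relb (67.9 against 170) were lower in the cells that carry their labels. Counts over all exons do not show whether a protein was lost, so the lines are named by their labels throughout and every direction drawn from them rests on those labels.

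Promoter sequence is shown for Tlr2, Tlr9 and Tlr1, since the start sites of Tlr2 and Tlr9 were listed as more accessible in the pouch and that of Tlr1 was in no list. The bases come from the RefSeq promoter table of GRCm38.p6, which matched 6 of the 9 genes, and stop short of annotated exons. They read 5′ to 3′ along the gene, at chr3:83841768-83841858 on the minus strand for Tlr2, chr9:106222348-106222597 on the plus strand for Tlr9 and chr5:64933564-64933808 on the minus strand for Tlr1. Capitals mark matches to the NF-kB motif (GGG, 5 bases of any kind, CC) in Tlr2, to the ETS core of PU.1, GAGGAA, in Tlr9 and Tlr1, and to the AP-1 motif TGANTCA, the more downstream match in Tlr9.
Tlr2: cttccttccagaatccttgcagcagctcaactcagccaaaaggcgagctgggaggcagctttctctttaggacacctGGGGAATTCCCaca
Tlr9: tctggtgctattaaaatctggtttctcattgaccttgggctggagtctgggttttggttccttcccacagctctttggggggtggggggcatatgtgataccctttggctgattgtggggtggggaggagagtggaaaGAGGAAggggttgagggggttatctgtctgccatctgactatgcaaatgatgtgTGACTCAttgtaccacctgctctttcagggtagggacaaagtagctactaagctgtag
Tlr1: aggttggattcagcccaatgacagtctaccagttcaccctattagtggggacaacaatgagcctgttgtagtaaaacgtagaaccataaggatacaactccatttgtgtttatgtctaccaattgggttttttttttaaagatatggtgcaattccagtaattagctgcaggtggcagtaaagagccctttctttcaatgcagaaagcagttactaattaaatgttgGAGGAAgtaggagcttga
The capitals in Tlr2 cover overlapping matches, GGGGAATTCC and GGGAATTCCC. In Tlr9 the ETS core began 112 bp and the AP-1 match 58 bp before the start, and in Tlr1 the ETS core began 23 bp before it. Over all 32851 RefSeq promoter windows of 250 bp, searched on both strands, 45.8% held the NF-kB motif, 23.3% the ETS core and 6.75% the AP-1 motif. Such a match describes letters in the window and not a bound site.

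Open chromatin near these genes was listed as differing between tissues mainly in the direction of more accessibility in the pouch. Within 50 kb of the 9 starts lay 86 of the 47164 merged sites, and 31 of the 86 were in at least 1 of the lists of 5 comparisons, where 20.0% of all merged sites were listed. In the exudate against bone marrow, 20 of the sites were listed as more accessible (9.93% of all sites) and 2 as less (4.72%). In the membrane against bone marrow the counts were 20 (8.60%) and 2 (4.55%). Against blood, 18 sites were more accessible in the exudate (6.01%) and 0 less (2.30%), and 16 were more accessible in the membrane (4.72%) and 1 less (1.92%). Blood against bone marrow listed 3 sites as more accessible (1.19%) and 1 as less (0.812%). These lists come from the authors' deposited table, share libraries between comparisons, and give no accessibility per library, so no test of the genes' share was made. They assign the majority of the 31 listed sites to genes other than the 9. These genes are E230025N22Rik, Alas1, Atp7a, Klf3, Fam114a1, Prps2, Ppm1m, Twf2 and Pgk1.

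**Figure D1:**
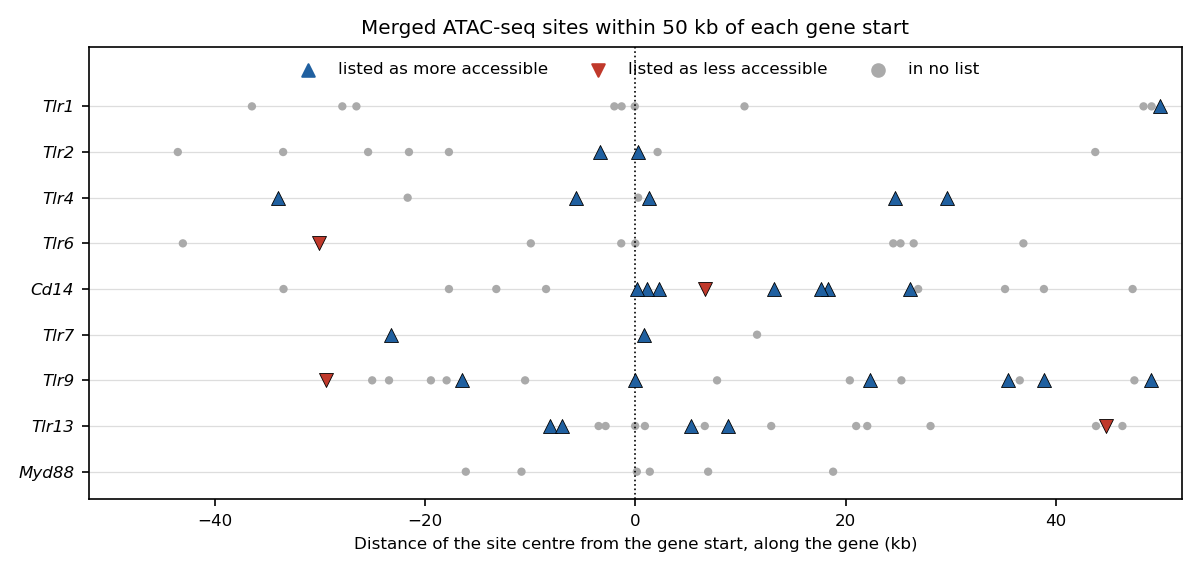
Distance in kb of each merged ATAC-seq site's centre from the gene start, along the gene, for the 9 genes. Blue upward triangles are sites listed as more accessible in at least 1 of the 5 comparisons, red downward triangles sites listed as less accessible, and grey circles sites in no list. The 8 listed sites of Cd14 lie at or downstream of its start, and none of the 6 sites of Myd88 is listed.

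Cd14, on chr18:36725074-36726736 of mm10 (minus strand), had 16 sites nearby, of which 7 were listed as more accessible and 1 as less. The site over its start was more accessible in the authors' deposited table in exudate and membrane against bone marrow (−log10 adjusted p of 7.65 and 6.39) and against blood (9.67 and 8.24). A site 12806 bp downstream of the start, chr18:36713164-36713930, had the highest values of the 16 in each of these 4 comparisons (23.8, 22.3, 21.3 and 20.0). The authors' table assigns that site, and every other listed site from 6280 bp downstream outward, to another gene, E230025N22Rik.

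Tlr2, on chr3:83836272-83841767 (minus strand), had 9 sites, of which 2 were listed, each as more accessible. In the authors' deposited table the site over its start reached 13.3 in exudate and 10.0 in membrane against bone marrow, and 5.75 in exudate against blood. The site 2875 bp upstream, chr3:83844642-83845649, was listed in all 4 pouch comparisons, at 17.8 and 14.1 against bone marrow and 9.57 and 7.02 against blood. Tlr4, on chr4:66827584-66930284 (plus strand), had 7 sites, of which 5 were listed as more accessible, though the one over its start was in no list. Its intronic site chr4:66856939-66857504 reached 23.3 in exudate and 23.0 in membrane against bone marrow and was also listed for blood against bone marrow, at 4.20. A further intronic site 985 bp from the start reached 15.7 and 16.3.

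Of the endosomal receptors, Tlr9, on chr9:106222598-106226883 (plus strand), had 17 sites, 6 listed as more accessible and 1 as less. Its start site was listed in 4 comparisons in the authors' deposited table (6.31 and 5.95 against bone marrow, 2.44 and 2.27 against blood), and 4 sites downstream, assigned there to Alas1, reached up to 9.38. Tlr13, on chrX:106143204-106160493 (plus strand), had 16 sites with 4 listed as more and 1 as less accessible. Of the 4, 2 lay in introns of Tlr13 (up to 5.87) and 2 upstream of it, assigned in that table to Atp7a and listed also for blood against bone marrow (2.50 and 4.95). Tlr7, on chrX:167304929-167330558 (minus strand), had 3 sites, of which 1 over an exon was listed for exudate against bone marrow at 2.31 and 1 upstream for membrane against bone marrow at 1.62. Tlr1 (chr5:64924679-64933563) and Tlr6 (chr5:64952031-64960097) lie beside each other on the minus strand and share sites within 50 kb. Of 10 and 9 sites, 1 each was listed, more accessible 49651 bp from the Tlr1 start and less accessible 29837 bp from the Tlr6 start. The authors' deposited table assigns these sites to Klf3 and Fam114a1. Myd88, on chr9:119335934-119341411 (minus strand), had 6 sites and 0 listed, including the one over its start.

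In RNA of the same tissues Cd14 had the highest level of the 9 genes per kb of exon length in each of the 15 libraries, while in CPM, which is not scaled by length, Tlr2 exceeded it in exudate library 5 and blood library 4. The 5 exudate libraries held 27799, 29121, 20786, 18464 and 708 CPM of Cd14, and the 2 membrane libraries 27102 and 16772. Blood held 5486, 9645, 575, 290 and 262 CPM and bone marrow 1000, 229 and 510. Exudate libraries 1 to 4 and both membrane libraries lay above every blood and bone marrow library, while exudate library 5 lay within their range. The log2 difference was 5.06 (SE 1.22, adjusted p = 0.0764, edgeR) between exudate and bone marrow and 5.24 (SE 1.30, adjusted p = 0.182) between membrane and bone marrow. Neither passed the threshold of 0.05, nor did exudate against blood (2.58, SE 0.868, adjusted p = 0.194). Without exudate library 5 the exudate to bone marrow difference was 5.36 with an adjusted p of 0.0197 (edgeR). The adjusted p was 0.0402 without blood library 5. Without membrane library 1 or 2, which left 1 membrane library, the difference was 5.02 each time. Over all 15 libraries left out in turn it ranged from 4.68 to 5.71, with an adjusted p of up to 0.187. With any library not named here left out, it did not pass. Blood and membrane libraries enter this comparison only through the shared spread and scaling. Blood libraries 1 and 2, the highest of their group in Cd14, were left out together after seeing the data. The exudate to blood difference was then 5.67 with an adjusted p of 0.00762 (edgeR). Since these libraries were picked by their Cd14 level, that value cannot serve as a test of Cd14. Both differences from bone marrow passed in edgeR with a block by the m number in the column names, chosen after seeing the data (4.58 with an adjusted p of 0.0167 for exudate, 5.51 with 0.00335 for membrane). The column names also carry a tag, 100 in all 3 bone marrow columns and 300 in both membrane columns, which the labels do not explain, so tag and tissue cannot be told apart between these groups directly. With a term for the tag, estimated through exudate and blood and likewise chosen after seeing the data, the differences were 6.75 (adjusted p = 0.0109) and 7.91 (adjusted p = 0.0191). In bulk RNA, fewer cells of a type and less RNA per cell cannot be told apart.

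Tlr2 followed a like order with a smaller range. It stood at 564, 702, 555, 522 and 966 CPM in exudate, 876 and 693 in membrane, 307, 649, 134, 312 and 78.4 in blood and 153, 92.6 and 73.8 in bone marrow. Exudate and membrane did not overlap with bone marrow, while exudate overlapped with blood through blood library 2. The differences from bone marrow were 2.63 (SE 0.820, adjusted p = 0.108, edgeR) for exudate and 2.88 (SE 0.920, adjusted p = 0.311) for membrane. Tlr4 held 388, 156, 115, 282 and 172 CPM in exudate and 45.8, 17.2 and 35.7 in bone marrow, with no overlap (2.76, SE 1.19, adjusted p = 0.180), and 554 and 165 in membrane. In blood it ranged from 2.41 to 314 CPM, across the exudate range.

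Myd88 held 378, 547, 439, 552 and 34.2 CPM in exudate, 696 and 170 in membrane, 165, 237, 89.6, 58.5 and 170 in blood and 63.2, 37.1 and 132 in bone marrow. As with Cd14, the lowest exudate value was that of library 5, below all 3 bone marrow libraries. Tlr13 ranged from 35.6 to 718 CPM in exudate, 200 to 432 in membrane, 39.7 to 312 in blood and 23.96 to 96.6 in bone marrow. Tlr6 ranged from 2.76 to 199 CPM in exudate, 16.2 to 241 in membrane, 1.40 to 128 in blood and 1.83 to 22.7 in bone marrow, so its groups overlapped. Tlr1 reached 38.8 CPM in exudate and 184 in blood, stood at 0.530 to 6.67 in bone marrow and had 0 counts in both membrane libraries, where a floor of 3 counts over the group corresponds to 0.125 CPM. Tlr7 was counted in 1 of 5 exudate, 2 of 5 blood, 1 of 2 membrane and 0 of 3 bone marrow libraries, at most 15.7 CPM. Tlr9 exceeded 1 CPM in membrane library 2 alone (3.25 CPM) and did not pass the filter on low counts. The bone marrow libraries held 0 counts of Tlr7 and Tlr9, with a floor of 0.0576 CPM that covers counting error only.

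Per kilobase of exon the exudate order was Cd14 (12325 ± 7234 CPM per kb, SD, n = 5), Tlr2 (220 ± 60.8), Myd88 (151 ± 82.3), Tlr13 (68.8 ± 65.1), Tlr4 (40.1 ± 20.0), Tlr6 (24.4 ± 23.1), Tlr1 (3.34 ± 4.81), Tlr7 (0.768 ± 1.72) and Tlr9 (0.0352 ± 0.0670). From Tlr2 downward, neighbours in that order overlapped in their ranges over the libraries, while every library of Cd14 lay above every one of Tlr2.

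**Figure D2:**
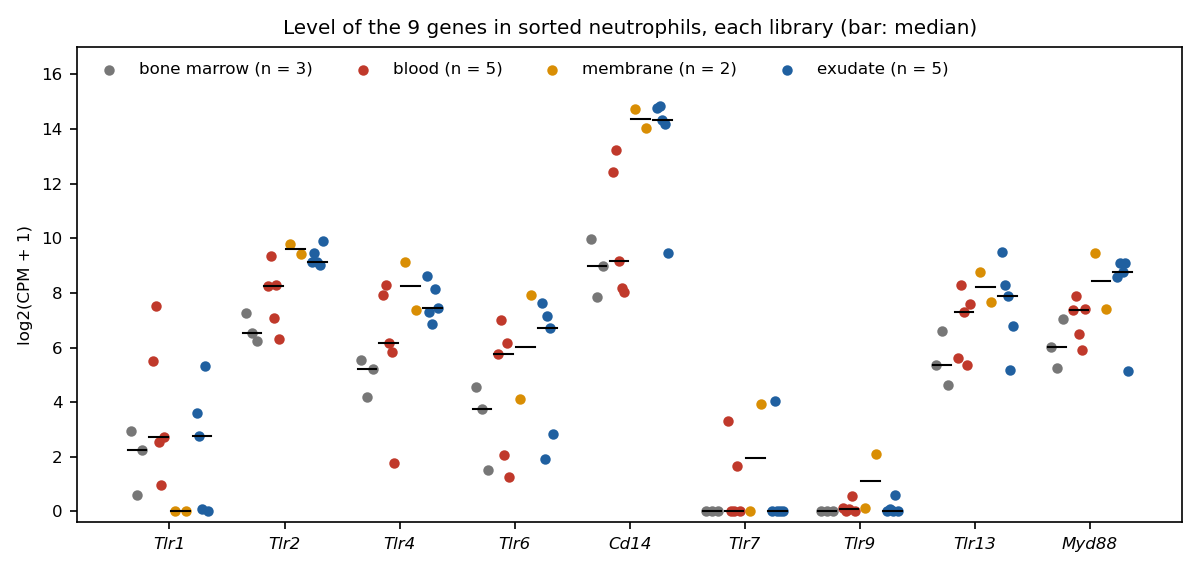
Level of the 9 genes as log2(CPM + 1) in each library of bone marrow (grey), blood (red), membrane (orange) and exudate (blue), with a bar at the group median. The 4 higher exudate libraries and the 2 membrane libraries lie above all others in Cd14, and Tlr7 and Tlr9 lie at or near 0 in most libraries.

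Of the 8 genes that passed the filter, 0 were called in each of the 6 tissue comparisons by edgeR, where the share of all genes called was 0.178% for exudate against bone marrow, 0.0162% for membrane and for blood against bone marrow and 0% for the others. At an unadjusted p under 0.05, 17 of the 48 tests passed. They were 7 in membrane (13.3% of all genes), 5 in exudate (23.1%) and 1 in blood (11.7%) against bone marrow. Against blood they were 2 in membrane (7.81%) and 1 in exudate (19.1%), and 1 in exudate against membrane (8.22%). In simulated data with the spread of these libraries, for exudate against bone marrow, a smaller and a larger change were put in, both far above 2-fold. The edgeR test with adjusted p missed most genes given the smaller change and found more of those given the larger. The settings of the simulation were changed after earlier runs with 1 spread common to all genes, which found none of the changed genes. The runs described here used a spread for each gene. A count of 0 thus does not show that levels did not differ. DESeq2 called 10 of the 48, beside 3.70% to 20.4% of all genes with an adjusted p in each comparison, and 6 of the 10 were Tlr7 or Tlr1 with one group at 0 counts. Limma voom called 3, 1 of them with a group at 0 counts, beside 0.349% to 7.85%. The groups of 6 genes did not overlap between membrane and bone marrow (Tlr1 lower, and Tlr2, Tlr4, Tlr13, Cd14 and Myd88 higher in membrane; 31.6% of all genes), of 2 between exudate and bone marrow (Tlr2 and Tlr4; 11.7%) and of 3 between membrane and blood (Tlr1, Tlr2 and Cd14; 12.6%). They were 0 between blood and bone marrow (4.98%), exudate and blood (2.17%) and exudate and membrane (5.88%). The median log2 difference of the genes was 2.70 between exudate and bone marrow and 3.13 between membrane and bone marrow, beside 0.13 and -0.75 over all genes tested. Of the 43 other genes of the pathway (other receptors, co-receptors and chaperones, adaptors and kinases, inhibitors), 0 were called in any tissue comparison. The 9 monocyte and macrophage markers, whose cells also carry these receptors, summed to 0 to 42.2 CPM in exudate, 0.733 to 13.3 in membrane, 0.193 to 173 in blood and 0 to 0.343 in bone marrow. Among these markers Ccr2 and Cx3cr1 had 0 counts in every membrane and bone marrow library, while others of the 9 were counted in both membrane libraries. Cx3cr1 is also the gene named in the CX3CR1GFP reporter of these mice, and whether the reporter altered its counts was not tested. The 6 dendritic cell markers summed to 180 to 226 CPM in membrane, 1.30 to 210 in exudate and 0.172 to 102 in bone marrow, and their part in the differences was not tested.

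In ER-Hoxb8 cells the comparison asked how wild-type cells respond to zymosan within 2 h, and there Cd14, Tlr2, Tlr6, Tlr7 and Tlr9 were higher with zymosan in both sets, as was Tlr13 except with total-count scaling in set 1. In set 1, 6 of the 9 genes were higher (35.7% of all genes) and 2 lower (39.9%), where 75.6% of all genes were called. In set 2, 8 were higher (36.3%) and 0 lower (32.1%), where 68.4% were called. The median change of the genes was 1.27 in set 1 and 1.40 in set 2, beside -0.07 and 0.05 over all genes. Changes are given with TMM scaling, relative to the bulk of genes. With total-count scaling 5 were higher and 4 lower in set 1, and 6 higher and 2 lower in set 2. That scaling moved the median of all genes by -0.68 to -0.94 in the 6 zymosan comparisons, and each direction of the 9 genes that it turned is named where it occurs.

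Among the surface receptors, Tlr2 rose from 633 and 621 CPM with DMSO to 1844 and 1775 with zymosan in set 1 (log2 change 1.53, SE 0.0315, adjusted p = 9.03e-45, edgeR). In set 2 it rose from 851 and 858 to 2939 and 2876 CPM (1.77, SE 0.0183). Its partner Tlr6 rose from 31.92 and 31.98 to 78.6 and 75.4 CPM in set 1 (1.27) and from 16.3 and 16.7 to 45.5 and 41.6 in set 2 (1.40). For each of these genes both zymosan libraries lay above both DMSO libraries. The share of all genes whose groups were so separated was not counted in ER-Hoxb8 cells, here or below. Tlr1, the other partner of TLR2, fell from 78.3 in each library to 49.8 and 50.1 CPM in set 1 (-0.65, SE 0.0468) and in set 2 stood at 51.4 and 51.2 against 54.5 and 55.4 (0.10, adjusted p = 0.0544, edgeR; -0.78 with total-count scaling). Tlr4 fell in set 1 from 114 and 110 to 87.8 and 90.3 CPM (-0.33) and rose in set 2 from 62.1 and 64.2 to 112 and 110 (0.81, but -0.06 with total-count scaling).

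Cd14, the co-receptor, rose from 829.3 and 829.6 to 6470 and 6222 CPM in set 1 (2.94, SE 0.0329, 7.65-fold, adjusted p = 3.45e-58, edgeR). In set 2 it rose from 1409 and 1421 to 10819 and 10473 CPM (2.91, SE 0.0187, 7.52-fold). Over the same libraries the 9 monocyte and macrophage markers summed to 1232 to 1251 CPM with DMSO and 1156 to 1189 with zymosan in set 1, and to 989 to 993 and 1032 to 1038 in set 2. The 6 dendritic cell markers summed to 71.1 to 71.7 CPM with DMSO and 216 to 217 with zymosan in set 1, and to 64.7 to 65.7 and 275 in set 2, with Siglech at 0 in the zymosan libraries of both sets. The 10 neutrophil markers summed to 26091 to 27734 and 21305 to 21611 CPM in set 1, and to 48152 to 50237 and 62672 to 64006 in set 2. The part of such cells in the change of Cd14 was not tested.

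Among the endosomal receptors Tlr7 and Tlr9 started low, while Tlr13 did not. Tlr9 rose from 8.76 and 9.02 to 76.2 and 75.3 CPM in set 1 (3.09, SE 0.0667, 8.52-fold) and from 19.6 and 19.3 to 69.9 and 67.0 in set 2 (1.81, SE 0.0577, 3.52-fold). Tlr7 rose from 37.3 and 34.1 to 177 and 192 CPM in set 1 (2.37) and from 23.7 and 24.8 to 148 and 151 in set 2 (2.63). Zymosan libraries lay above DMSO libraries for both receptors in both sets. Tlr13 rose from 473 and 468 to 598 in each library of set 1 (0.35, but -0.36 with total-count scaling) and from 282 and 284 to 752 and 746 CPM in set 2 (1.40). Myd88, the adaptor, stood at 227 and 231 CPM with DMSO and 237 and 224 with zymosan in set 1, which overlapped (0.01, adjusted p = 0.841, edgeR; -0.69 with total-count scaling). In set 2 it rose from 305 and 303 to 429 and 415 CPM (0.47, but -0.40 with total-count scaling).

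**Figure D3:**
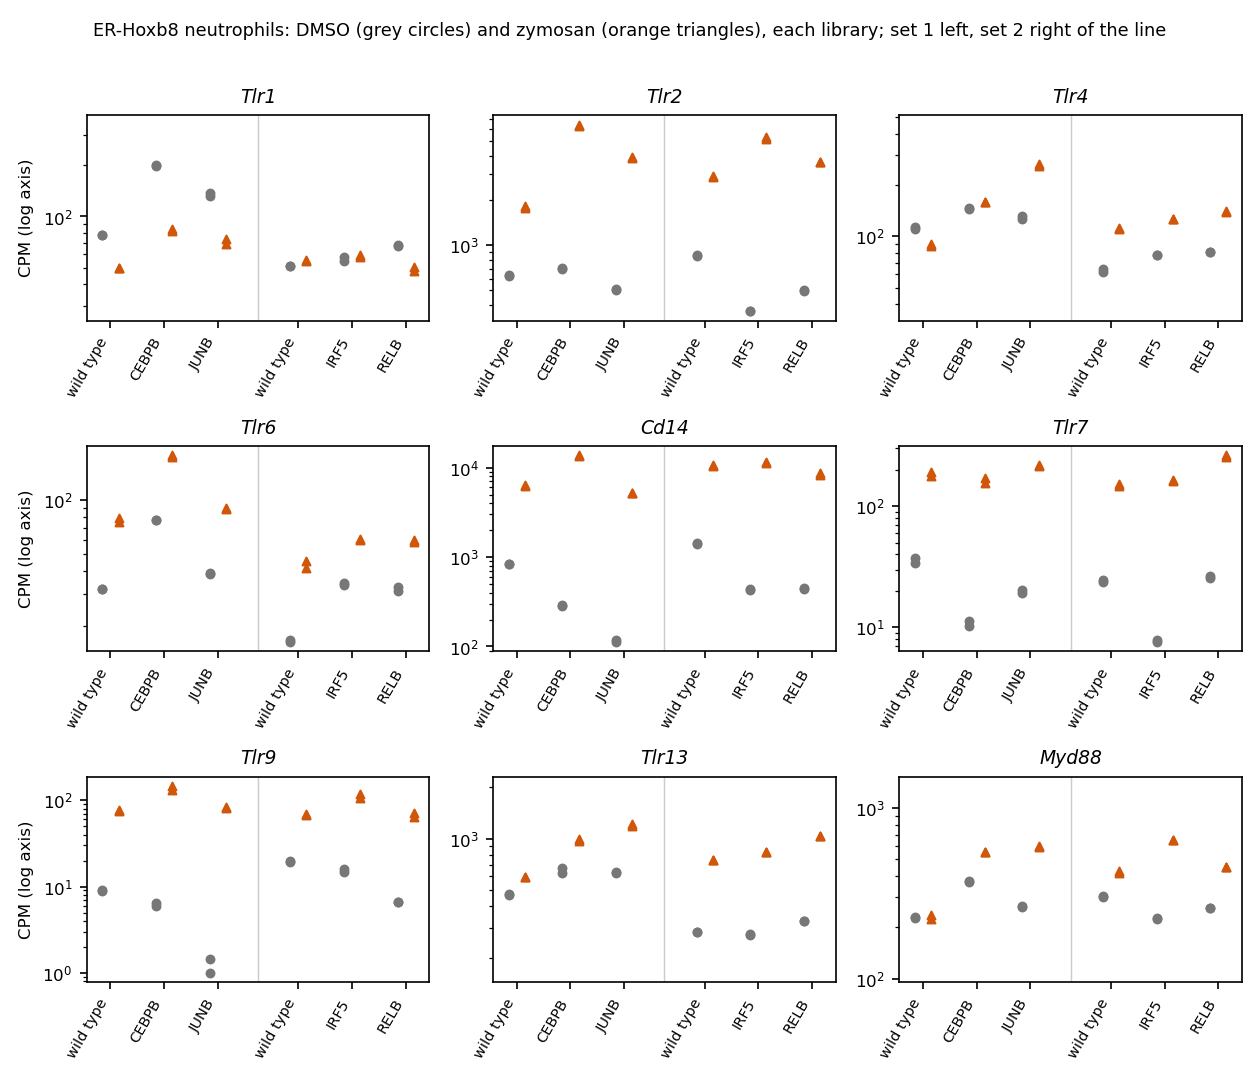
CPM on a log axis of each of the 9 genes in every library of set 1 (left of the line) and set 2 (right), with DMSO as grey circles and zymosan as orange triangles. Cell lines are named by their labels. Zymosan libraries lie above DMSO libraries in all 6 lines for Tlr2, Tlr6, Cd14, Tlr7, Tlr9 and Tlr13 with TMM scaling; under total-count scaling Tlr6 turns in the lines labelled IRF5-/- and RELB-/-, and Tlr13 in wild type of set 1 and the line labelled CEBPB-/-.

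Per kilobase of exon, the order in wild-type DMSO cells of set 1 was Cd14 (528 CPM per kb), Tlr2 (208), Tlr13 (115), Myd88 (88.9), Tlr1 (23.4), Tlr4 (20.1), Tlr7 (8.74 ± 0.563, SD, n = 2), Tlr6 (8.57 ± 0.0108) and Tlr9 (2.56). Tlr7 and Tlr6 did not differ beyond their spread. With zymosan the order became Cd14 (4037), Tlr2 (600), Tlr13 (146), Myd88 (89.5), Tlr7 (45.2), Tlr9 (21.8), Tlr6 (20.7), Tlr4 (16.03) and Tlr1 (14.9), so Tlr1 and Tlr4 moved to the end. In set 2 the zymosan order was Cd14 (6772), Tlr2 (965), Tlr13 (183), Myd88 (164), Tlr7 (36.7), Tlr4 (20.0 ± 0.188), Tlr9 (19.7 ± 0.588), Tlr1 (16.4) and Tlr6 (11.7), where Tlr4 and Tlr9 did not differ beyond their spread.

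The wild-type responses of the sets were compared in a joint fit of 8 libraries, in which 38.6% of all genes differed. Of the 9 genes, 4 had a higher response in set 2 (16.4% of all genes) and 2 a lower one (22.3%). The response of set 2 was higher for Tlr4 (1.00, SE 0.0606), Tlr13 (0.92), Tlr1 (0.61) and Myd88 (0.33), and lower for Tlr9 (-1.41, SE 0.0890) and Cd14 (-0.16). For Tlr2 (0.10, adjusted p = 0.0843, edgeR), Tlr7 (0.12) and Tlr6 (-0.01) the difference was not called. Of the 9 tested inhibitors of the pathway, 0 had a higher and 8 a lower response in set 2, led by Tnfaip3 (-2.0) and Nfkbia (-1.44).

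Other genes of the pathway, listed by role, moved in both directions in wild type. In set 1, 6 of 9 tested inhibitors rose and 3 fell, led by Tnfaip3, the A20 ubiquitin-editing enzyme that ends NF-kB signalling (4.91, from 138 to 4166 CPM), Nfkbia (2.89), Socs1 (2.77) and Irak3 (2.56). In set 2, also with 6 of 9 higher and 3 lower, the leading inhibitors were Tnfaip3 (3.05), Irak3 (2.42), Tollip (1.66) and Nfkbia (1.59). Of 18 adaptors, kinases and ligases 9 rose and 7 fell in set 1, among them Ticam2 (2.90), the kinase Irak2 (2.34), Tab1 (-2.19) and the kinase Irak4 (-2.17), which acts directly after MyD88. With total-count scaling the split was 6 and 12. In set 2, 10 rose and 6 fell (5 and 13 with total-count scaling), led by Tab1 (-2.27), Irak2 (2.25), Tbk1 (2.00) and Ticam2 (1.95). Of co-receptors, chaperones and transporters 4 of 8 rose and 3 fell in set 1, led by the endolysosomal transporter Slc15a3 (2.93), Cnpy3 (-1.02), Cd180 (0.92) and Ly96, which encodes the MD-2 partner of TLR4 (0.73). Total-count scaling gave 2 and 5. Of 10 tested in set 2, 4 rose and 4 fell, with Slc15a3 (3.00) first, and total-count scaling gave 1 and 8. The inhibitor counts were the same under both scalings. Among other receptors Tlr8 (-2.05 and -1.99) and Tlr5 (-1.70 and -2.09) fell in both sets.

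Under DMSO the labelled lines were compared with wild type, of their own set or, for RUNX1-/- and KLF6-/-, of set 2. The comparison asked how the levels differ before stimulation. Cd14 and Tlr9 were lower than in wild type in all 6 lines, and Tlr4 and Tlr6 were higher in all 6, though with total-count scaling Tlr4 (-0.35) and Tlr6 (-0.26) were lower in cells labelled JUNB-/-. Lines of a set share their wild-type libraries, as do the lines labelled RUNX1-/- and KLF6-/- with set 2, so these comparisons are not independent. For the lines labelled RUNX1-/- and KLF6-/- no wild type other than that of set 2 was counted, so line and sequencing cannot be told apart. In these comparisons 9 of the 9 genes were called in cells labelled CEBPB-/- (70.5% of all genes), JUNB-/- (76.4%), IRF5-/- (64.6%), RUNX1-/- (75.3%) and KLF6-/- (66.2%), and 8 of 9 in cells labelled RELB-/- (59.4%). In cells labelled CEBPB-/- 6 were higher (33.6% of all genes) and 3 lower (36.9%), in JUNB-/- 5 (35.4%) and 4 (41.1%), and in IRF5-/- 3 (35%) and 6 (29.6%). In RELB-/- 4 were higher (32.1%) and 4 lower (27.3%), in RUNX1-/- 3 (38.2%) and 6 (37.1%), and in KLF6-/- 3 (31.2%) and 6 (35%). Total-count scaling gave, in that order, 4 and 4, 1 and 8, 2 and 6, 4 and 4, 4 and 5, and 3 and 6. Calls were common among all genes, so a call sets these 9 apart from few others.

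Cd14 held 281 and 287 CPM in cells labelled CEBPB-/- and 119 and 112 in cells labelled JUNB-/-, against 829.3 and 829.6 in wild type. The differences were -1.55 (SE 0.0325) and -2.84 (SE 0.0351), the latter a 7.17-fold lower level. In set 2 it held 426 and 440 CPM in cells labelled IRF5-/- (-1.71) and 442 and 451 in cells labelled RELB-/- (-1.67), against 1409 and 1421. Every library of these lines lay below the wild type, and the share of all genes so separated was not counted. On the scale of the later table, cells labelled RUNX1-/- held 781 and 762 CPM (-1.44) and cells labelled KLF6-/- 1721 and 1707 (-0.29), against 2090 and 2103 in wild type. Its level with DMSO was thus lower by less than 2-fold in cells labelled KLF6-/- alone.

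Tlr9 held 6.47 and 6.02 CPM in cells labelled CEBPB-/- (-0.51) and 1.44 and 1.00 in cells labelled JUNB-/- (-2.84, SE 0.148), against 8.76 and 9.02. In set 2 it held 14.67 and 15.96 CPM in cells labelled IRF5-/- (-0.34) and 6.61 and 6.62 in cells labelled RELB-/- (-1.56), against 19.6 and 19.3. It stood at 18.1 and 17.5 CPM in cells labelled RUNX1-/- (-0.70) and 18.1 and 17.2 in cells labelled KLF6-/- (-0.71), against 29.1 and 28.6. Groups did not overlap in any of the 6 comparisons. The share of all genes without overlap was not counted there, and 59.4% to 76.4% of all genes were called in these comparisons. Tlr7 was lower in cells labelled CEBPB-/- (10.2 and 11.2 against 37.3 and 34.1 CPM, -1.74), IRF5-/- (7.87 and 7.55 against 23.7 and 24.8, -1.65), JUNB-/- (-0.85) and KLF6-/- (-0.64). It was higher in cells labelled RUNX1-/- (64.2 and 66.8 against 35.2 and 36.7, 0.87) and was not called in cells labelled RELB-/- (0.10, adjusted p = 0.0641, edgeR).

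Tlr2 was lowest, relative to wild type, in cells labelled RUNX1-/-, at 311 and 306 CPM against 1263 and 1269 (-2.04, SE 0.0215, 4.11-fold lower). It was lower also in cells labelled IRF5-/- (361 and 364 against 851 and 858 CPM, -1.24), RELB-/- (492 and 502, -0.78), JUNB-/- (507 and 499 against 633 and 621, -0.32) and KLF6-/- (-0.31). In cells labelled CEBPB-/- it was higher, 694 and 703 CPM (0.16), but lower by total-count scaling (-0.20). Tlr1 was higher in cells labelled CEBPB-/- (198 and 199 against 78.3 CPM in each library, 1.34), JUNB-/- (0.79), KLF6-/- (0.60), RELB-/- (0.40) and IRF5-/- (0.14) and lower in cells labelled RUNX1-/- (42.4 and 42.0 against 76.3 and 75.8, -0.85). Tlr6 was higher by 1.27 in cells labelled CEBPB-/- (76.9 and 76.7 against 31.92 and 31.98 CPM), 1.05 in those labelled IRF5-/- and 0.95 in those labelled RELB-/-, and by 0.17 to 0.54 in the other lines.

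Tlr4 differed by 0.20 to 0.52, higher in every line with TMM scaling and lower in cells labelled JUNB-/- with total-count scaling (-0.35). Tlr13 differed by -0.28 to 0.46, with the direction turned by total-count scaling in cells labelled JUNB-/- (0.42 to -0.13) and RUNX1-/- (-0.06 to 0.30). Myd88 was higher in cells labelled CEBPB-/- (371 and 375 against 227 and 231 CPM, 0.70) and JUNB-/- (0.21, but -0.34 with total-count scaling). It was lower in cells labelled RUNX1-/- (233 and 232 against 453 and 448, -0.95), IRF5-/- (-0.43), RELB-/- (-0.23) and KLF6-/- (-0.18).

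**Figure D4:**
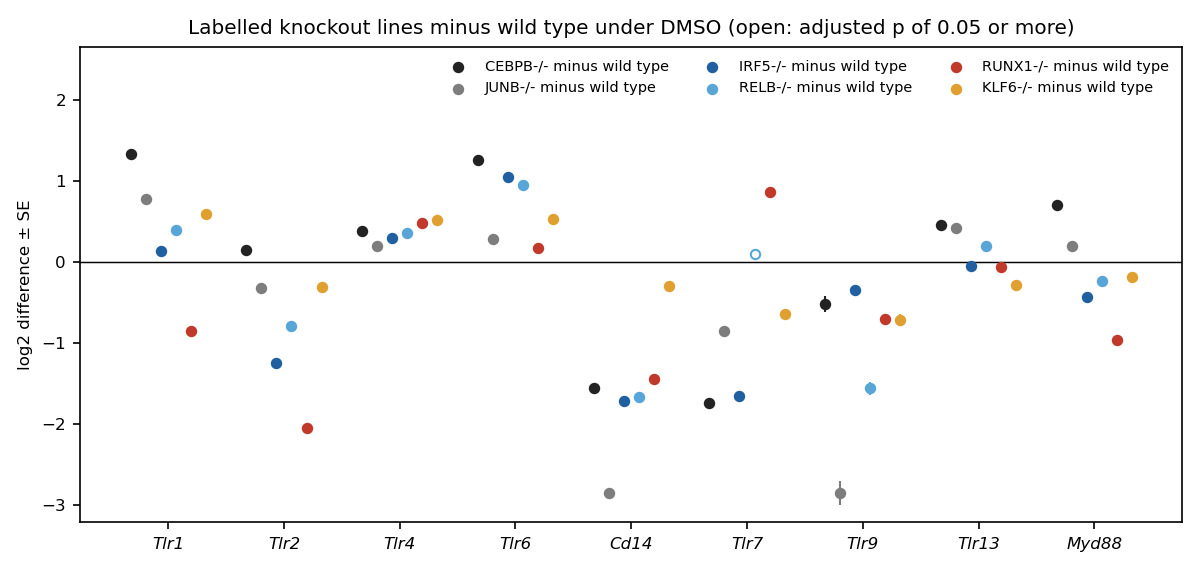
Log2 difference with its standard error between each labelled line and wild type under DMSO, for the 9 genes with TMM scaling (open circle, adjusted p of 0.05 or more). The lines labelled RUNX1-/- and KLF6-/- are set against the wild type of set 2. Cd14 and Tlr9 lie below 0 in all 6 lines, and Tlr4 and Tlr6 above 0, the latter pair turning below 0 in the line labelled JUNB-/- with total-count scaling.

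Among pathway genes under DMSO, Tnfaip3 was lower in all 6 lines, by -1.23 in cells labelled CEBPB-/-, -3.57 in JUNB-/-, -1.78 in IRF5-/-, -1.72 in RELB-/-, -3.04 in RUNX1-/- and -0.55 in KLF6-/-. Of 9 tested inhibitors, 6, 5, 5, 6, 7 and 6 were lower and 2, 4, 1, 2, 0 and 3 higher in the lines in that order. Nfkbia was lower in cells labelled JUNB-/- (-1.08), IRF5-/- (-1.28), RELB-/- (-1.23) and RUNX1-/- (-2.51). Ikbke, a kinase of the interferon branch, was lower in cells labelled CEBPB-/- (-1.45), JUNB-/- (-3.68), IRF5-/- (-1.83), RELB-/- (-2.14) and KLF6-/- (-1.08). Irak2 was lower in cells labelled CEBPB-/- (-0.92), JUNB-/- (-1.20), IRF5-/- (-0.79), RELB-/- (-0.70) and RUNX1-/- (-0.65). Tnfaip3, Nfkbia, Ikbke and Irak2 kept these directions with total-count scaling, while the inhibitors then counted 6, 6, 7, 6, 5 and 6 lower and 2, 2, 1, 2, 2 and 2 higher. Of 18 adaptors, kinases and ligases 5, 7, 11, 8, 5 and 9 were higher and 7, 7, 7, 6, 11 and 7 lower in the same order of lines. With total-count scaling 2, 3, 6, 8, 10 and 7 were higher and 13, 12, 7, 6, 4 and 8 lower. Markers of other cell types differed between lines as well. With DMSO the monocyte and macrophage markers summed to 1163 to 1168 CPM in cells labelled CEBPB-/- and 790 to 791 in JUNB-/-, against 1232 to 1251, and to 610 to 611 in IRF5-/- and 801 to 802 in RELB-/-, against 989 to 993. In the later table they summed to 1728 to 1735 CPM in cells labelled RUNX1-/- and 1091 to 1099 in KLF6-/-, against 1464 to 1474. The 10 neutrophil markers summed to 56501 to 57804 CPM in cells labelled CEBPB-/- and 73267 to 80267 in JUNB-/-, against 26091 to 27734, and to 19357 to 19658 in RUNX1-/-, against 71262 to 74538. The 5 eosinophil and mast cell markers summed to 514 to 536 CPM in cells labelled CEBPB-/- and 221 to 225 in JUNB-/-, against 1636 to 1640. They summed to 651 to 658 CPM in cells labelled IRF5-/- and 426 to 434 in RELB-/-, against 3473 to 3540 in wild type. The part of these cells in the differences was not tested.

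Within the labelled lines, zymosan raised Cd14, Tlr2, Tlr7 and Tlr9 in all 4, and the change was larger than in wild type for each of these genes in each line. The difference between responses was tested as an interaction, for which 41.0% of all genes were called in cells labelled CEBPB-/-, 43.6% in JUNB-/-, 33.3% in IRF5-/- and 31.4% in RELB-/-. Responses were counted by sign, so a deeper fall counts as lower. Of the 9 genes 7 had a higher response (24.4% of all genes) and 1 a lower one (16.7%) in cells labelled CEBPB-/-, and 7 (28.1%) and 1 (15.4%) in JUNB-/-. In IRF5-/- 6 had a higher (16.5%) and 1 a lower response (16.8%), and in RELB-/- 6 (16.1%) and 2 (15.3%). With total-count scaling the counts were 6 and 2, 7 and 1, 6 and 2, and 6 and 2. Of the 9 tested inhibitors 6, 6, 5 and 7 had a higher and 1, 0, 0 and 1 a lower response, led by Tnfaip3 in JUNB-/- (3.02), IRF5-/- (2.07) and RELB-/- (1.58). Lines of a set share the wild-type libraries here too. Between zymosan and DMSO itself, 8 of the 9 genes rose (35.1% of all genes) and 1 fell (38.4%) in cells labelled CEBPB-/-, where 73.5% were called. In JUNB-/- 8 rose (36.5%) and 1 fell (36.7%) of 73.2% called, in IRF5-/- 8 (34.3%) and 0 (35.4%) of 69.8%, and in RELB-/- 8 (35.2%) and 1 (37.5%) of 72.7%. Total-count scaling gave 5 and 4, 8 and 1, 6 and 3, and 5 and 3.

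Cd14 rose to 13686 and 13642 CPM in cells labelled CEBPB-/- (5.59, 48.1-fold) and to 5219 and 5269 in cells labelled JUNB-/- (5.50, 45.3-fold). The responses were larger than that of wild type by 2.65 (SE 0.0448) and 2.57 (SE 0.0461). In set 2 it rose to 11673 and 11283 CPM in cells labelled IRF5-/- (4.73) and to 8680 and 8372 in cells labelled RELB-/- (4.26), larger by 1.82 and 1.34. After zymosan the levels lay closer to wild type than with DMSO: the differences were 1.11 in cells labelled CEBPB-/-, -0.28 in JUNB-/-, 0.11 in IRF5-/- (-0.07 with total-count scaling) and -0.32 in RELB-/-.

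Tlr9 rose to 146 and 130 CPM in cells labelled CEBPB-/- (4.47), 83.2 and 82.0 in JUNB-/- (6.06, SE 0.104, from 1.44 and 1.00), 116 and 105 in IRF5-/- (2.86) and 71.6 and 64.6 in RELB-/- (3.37). These responses exceeded those of wild type by 1.38, 2.97, 1.04 and 1.55. After zymosan Tlr9 in cells labelled RELB-/- did not differ from wild type by the test (0.00, adjusted p = 0.964, edgeR), and in cells labelled JUNB-/- the difference was 0.12 (adjusted p = 0.0331, edgeR; -0.40 with total-count scaling).

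Tlr7 rose to 155 and 169 CPM in cells labelled CEBPB-/- (3.92), 218 and 213 in JUNB-/- (3.44), 162 and 164 in IRF5-/- (4.40) and 254 and 263 in RELB-/- (3.31). The interaction was 1.55, 1.07, 1.78 and 0.68. Tlr2 rose to 6304 and 6435 CPM in cells labelled CEBPB-/- (3.19), 3907 and 3846 in JUNB-/- (2.95), 5290 and 5173 in IRF5-/- (3.85) and 3640 and 3605 in RELB-/- (2.87). Its interaction was 1.66, 1.42, 2.08 and 1.10. Unlike Cd14, Tlr2 after zymosan lay above wild type in all 4 lines, by 1.82, 1.10, 0.85 and 0.32.

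Myd88 rose in all 4 lines with TMM scaling, by 0.57, 1.18, 1.53 and 0.81, while total-count scaling gave -0.36 in cells labelled CEBPB-/- and -0.08 in RELB-/-. Its interaction was 0.56, 1.17, 1.06 and 0.33. Tlr4 rose in cells labelled JUNB-/-, from 126 and 131 to 264 and 259 CPM (1.02), a response higher than that of wild type by 1.35 (SE 0.0566). In cells labelled CEBPB-/- it stood at 145 and 147 against 160 and 160 CPM (0.13, but -0.80 with total-count scaling), and its interaction in cells labelled IRF5-/- (-0.11) and RELB-/- (-0.03) was not called. Tlr13 rose by 0.59, 0.93, 1.61 and 1.66 in the lines, with -0.34 in cells labelled CEBPB-/- under total-count scaling. Tlr6 rose by 1.18, 1.20, 0.82 and 0.88, less than in wild type in cells labelled IRF5-/- (interaction -0.58) and RELB-/- (-0.51), where total-count scaling turned the change itself to -0.12 and -0.01.

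Tlr1 went the other way. It fell with zymosan in cells labelled CEBPB-/- (from 198 and 199 to 84.1 and 82.6 CPM, -1.25), JUNB-/- (-0.91) and RELB-/- (-0.45), and was not called in IRF5-/- (0.06, adjusted p = 0.261, edgeR; -0.88 with total-count scaling). Its fall exceeded that of wild type by -0.60 in cells labelled CEBPB-/- and -0.27 in JUNB-/-. In cells labelled RELB-/- the interaction was -0.55.

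**Figure D5:**
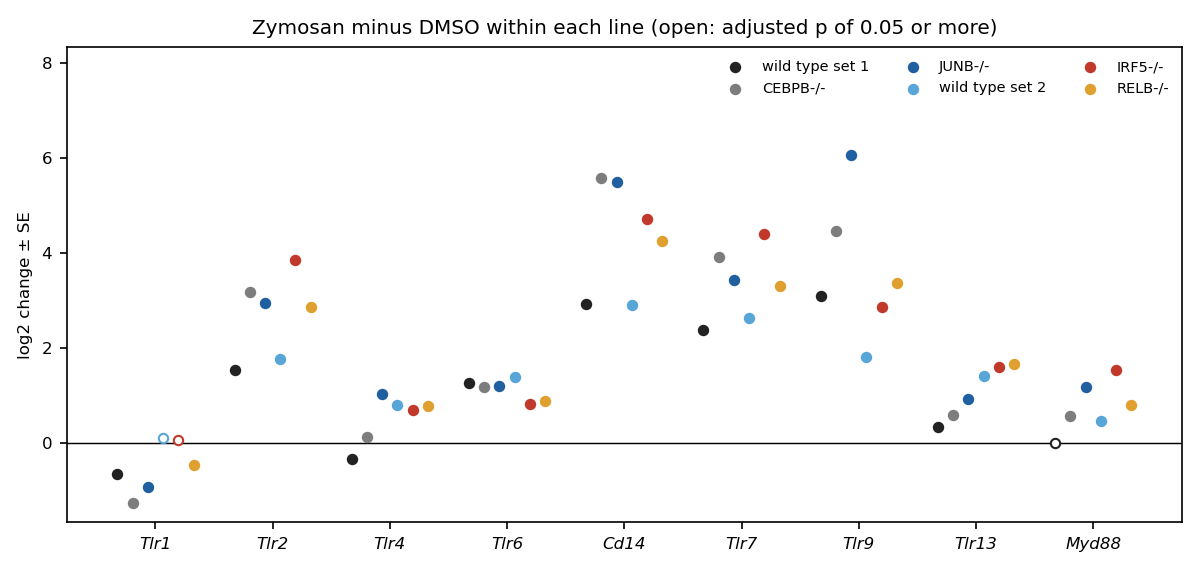
Log2 change from DMSO to zymosan with its standard error in wild type of both sets and in the 4 labelled lines, for the 9 genes with TMM scaling (open circle, adjusted p of 0.05 or more). Cd14, Tlr2, Tlr7 and Tlr9 rise in every line and by more in the labelled lines than in the wild type of their set, while Tlr1 is at or below 0.10 in each.

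Across the 24 libraries of sets 1 and 2, centred within each set, the levels of the 9 genes differed in how alike they were. Cd14 correlated with Tlr9 at r = 0.972, with Tlr2 at 0.941 and with Tlr7 at 0.924, and with Tlr1 at -0.637. These libraries share treatments and lines, so the values are a description. Among 12395 genes, those whose pattern was most like that of Cd14 were Il1rn, which encodes the interleukin-1 receptor antagonist (0.996), Mfsd1 (0.995) and Ccrl2 (0.995). For Tlr2 they were Paf1 (0.993), Spata13 (0.991) and Tmem38b (0.989), for Tlr9 Skil (0.988), Orai2 (0.988) and Bcl2l11 (0.987), and for Tlr7 Slc3a2 (0.984), Cst7 (0.981) and Clcn7 (0.980). The values were lower for Tlr13 (Fosl2, 0.979), Myd88 (Gpr141, 0.977), Tlr6 (Wdr1, 0.942), Tlr4 (Srpr, 0.941) and Tlr1 (Fip1l1, 0.934).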

How the data were processed

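RNA was counted in 15 tissue and 28 ER-Hoxb8 libraries, and open chromatin in 8. The deposited tables hold raw counts of read pairs per gene, made by the authors with featureCounts, per the file headers without strand in the tissues (version 1.5.0-p2) and as reverse stranded in ER-Hoxb8 cells (version 1.6.3). The submitters' processing notes name STAR and DESeq2 for RNA, and cutadapt, Bowtie2, MACS2 and DESeq2 for ATAC-seq, on mm10. In the authors' deposited lists of sites that differ, the value is the −log10 of an adjusted p. Their deposited list of merged sites gives a score whose scale is not stated, and other columns (peaks merged, width).

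The members and gene lists were chosen with earlier results of these data known. Tests were edgeR's quasi-likelihood test (4.0.16, TMM scaling) in R 4.3.3 on the counts as deposited, 1 fit per table, keeping genes by filterByExpr (count minimum 10, total 15, share 0.7). Calls needed a Benjamini-Hochberg adjusted p under 0.05 over all genes tested, 12330 to 13804 per fit, and the script was tested on simulated data. CPM uses TMM library sizes, so the wild type of set 2 has other values beside the later lines. Of 50600 gene IDs 50376 had symbols. In the table of set 1, 18 columns of no sample here were not used, and in the later table both wild-type DMSO columns equalled those of set 2. Replicate numbers did not pair libraries (r of deviations -0.039 to 0.037). All 9 members were named. From each of 4 pathway lists up to 4 called genes with the largest changes were named, besides targeted genes and the 3 genes most alike in Pearson r of log2(CPM + 1). Genes at 0 in a group are left out of the named ones. Alternatives were RLE and total-count scaling, DESeq2 1.42.0, limma 3.58.1 voom, no filter, a replicate block, fits of compared groups, 2-fold calls, each library left out, and other distances of sites. Figures used matplotlib in Python.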

Additional observations from a re-analysis of the deposited data

Results flagged for a closer look

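In the tissues, 6 of the 18 groups of 4 to 10 libraries examined held 1 library whose gap to the next exceeded Dixon's 95% critical value. Chance passes that value in about 1 of 20 groups of normally distributed values. CPM of genes with 0 or few counts, as in Tlr7 and Tlr9, are not so distributed, so that rate does not apply to them. In Tlr1, blood library 2 stood at 184 CPM with the next at 44.3, and exudate library 4 at 38.8 with the next at 11.2. In Tlr7, blood library 1 stood at 8.85 CPM with the next at 2.14, and exudate library 2 at 15.7 with the others at 0. In Tlr9, blood library 4 stood at 0.483 CPM and exudate library 4 at 0.535, with the next at 0.0876 and 0.0768.

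Responses to zymosan differed between groups by a test of the difference itself for 37 of 45 gene and group pairs, on the log2 scale and by edgeR. Against wild type, the response of cells labelled CEBPB-/- was higher for Cd14 (2.65), Tlr2 (1.66), Tlr7 (1.55), Tlr9 (1.38), Myd88 (0.56), Tlr4 (0.46) and Tlr13 (0.25) and lower for Tlr1 (-0.60). In cells labelled JUNB-/- it was higher for Tlr9 (2.97), Cd14 (2.57), Tlr2 (1.42), Tlr4 (1.35), Myd88 (1.17), Tlr7 (1.07) and Tlr13 (0.59) and lower for Tlr1 (-0.27). In cells labelled IRF5-/- it was higher for Tlr2 (2.08), Cd14 (1.82), Tlr7 (1.78), Myd88 (1.06), Tlr9 (1.04) and Tlr13 (0.20) and lower for Tlr6 (-0.58). In cells labelled RELB-/- it was higher for Tlr9 (1.55), Cd14 (1.34), Tlr2 (1.10), Tlr7 (0.68), Myd88 (0.33) and Tlr13 (0.25) and lower for Tlr1 (-0.55) and Tlr6 (-0.51).

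Between the wild types, the response of set 2 was higher than that of set 1 for Tlr4 (1.00), Tlr13 (0.92), Tlr1 (0.61) and Myd88 (0.33) and lower for Tlr9 (-1.41) and Cd14 (-0.16). The sets were counted in separate tables, so set and sequencing cannot be told apart.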

How the results depend on the processing

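Precision was limited by the spread between tissue libraries, where 0 of 48 tests were called. The count was 10 with DESeq2 (3.70% to 20.4% of all genes per comparison) and 3 with limma voom (0.349% to 7.85%). It was 5 with no filter on low counts, 1 with the compared groups alone and 0 to 1 with 1 library left out. Further alternatives were chosen after seeing the data. A replicate block by the m number of the columns gave 2 (0% to 1.25%) and a term for the column tag 2 (0% to 1.52%). With each of these the calls were Cd14, in exudate and in membrane against bone marrow. The count was 4 without blood libraries 1 and 2 and 6 also without exudate library 5, libraries that stood apart in Cd14. Counts printed without a percentage lack the share of all genes, so they do not set the 9 genes apart. The labels do not say what the m number stands for. Calls of at least 2-fold were 14 of 36 for the set 1 lines (24.9% to 38.9% of all genes per comparison), 6 of 33 for the set 2 lines (15.2% to 20.5%), 2 of 18 for the lines labelled RUNX1-/- and KLF6-/- (20.4% to 27.4%), 18 of 31 for the responses of lines (6.59% to 12.6%), 5 of 8 for wild type of set 1 (36.6%) and 2 of 6 for the responses of the sets (9.50%). Calls without a fold threshold, in the same order and with 1 library left out, were 35 to 36, 31 to 33, 16 to 18, 31 to 33, 8 to 8 and 5 to 7. They were 8 to 8 for wild type of set 2. Within 10 kb lay 32 of the 86 sites and 14 of the 31 listed ones.

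Total-count scaling turned 27 called or then called values. For zymosan against DMSO it gave, in wild type of set 1, -0.69 for Myd88 and -0.36 for Tlr13, and in set 2 -0.40 for Myd88, -0.78 for Tlr1 and -0.06 for Tlr4. It gave -0.36 for Myd88, -0.34 for Tlr13 and -0.80 for Tlr4 in cells labelled CEBPB-/-, -0.88 for Tlr1, -0.24 for Tlr4 and -0.12 for Tlr6 in IRF5-/-, and -0.08 for Myd88, -0.11 for Tlr4 and -0.01 for Tlr6 in RELB-/-. Under DMSO it gave, against wild type, -0.34 for Myd88, -0.13 for Tlr13, -0.35 for Tlr4 and -0.26 for Tlr6 in JUNB-/-, -0.20 for Tlr2 in CEBPB-/- and 0.30 for Tlr13 in RUNX1-/-. With zymosan it gave 0 for Tlr1, -0.30 for Tlr6, -0.30 for Tlr7 and -0.40 for Tlr9 in JUNB-/-, and -0.07 for Cd14, -0.03 for Tlr13 and -0.06 for Tlr7 in IRF5-/-. These follow from the shift of all genes that this scaling makes. Over all alternatives but leaving out libraries, 1070 of 1125 values in ER-Hoxb8 cells kept their side of the threshold with their direction, counting 17 that changed sign with neither value called. The calls of 17 were lost and 11 were gained, and the cause was not tested. With a replicate block 1 value of set 2 passed the threshold in addition, and no other call changed; numbers do not pair the libraries.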
